A study of Canis lupus familiaris with 5 samples.

Results

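The ribosomal protein genes of canine bone marrow were followed from stem-like to mature cells by single-cell RNA sequencing. They were taken by name alone: every symbol of the deposited feature list that starts with RPL, RPS or RPLP followed by a digit, without the S6 kinases. Of 20257 features, 61 met this rule, 26 with an RPS symbol and 35 with an RPL or RPLP symbol. The name also takes in RPS19BP1, which encodes a protein that binds RPS19 and is no ribosomal subunit, RPS27AP5, whose symbol is that of a pseudogene, and the paralogs RPL22L1, RPL36AL, RPL3L and RPL10L. RPS19, RPLP1, RPLP2, RPL36A, RPL39 and RPS27L carried no entry under these symbols and were not analysed here.

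Femoral marrow of 3 healthy wild-type dogs was loaded unsorted after lysis of red cells, giving whole marrows 1, 2 and 3. Viable CD34-positive cells were sorted from marrows 2 and 3, giving sorted libraries 1 and 2, though the labels do not say which marrow gave which library. CD34 is a glycoprotein on the surface of immature blood cells. The labels name no treatment, the dogs' ages are not given in the sources used here, and each library is a single loading that targeted 5000 cells. Per the labels' protocol, whole marrows were loaded only where flow cytometry found few neutrophils, so the share of neutrophils among barcodes is not that of marrow. Each library counts unique molecular identifiers (UMIs), tags of single captured mRNA 3′ ends, so levels are not divided by gene length.

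A ribosome consists of a small subunit (RPS proteins) and a large subunit (RPL proteins), with RPLP0 at the base of a flexible stalk that recruits translation factors. Nearly every one is needed in equal number, and their mRNAs share a terminal pyrimidine motif through which growth signals set their translation. In marrow the genes are best known from Diamond-Blackfan anemia, a failure of red cell precursors that follows loss of a copy of RPS24, RPS26, RPL5, RPL11, RPL35A or certain other ribosomal protein genes.

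Of 27953 barcodes, 24708 were kept, those with 200 or more genes and with no more than 10% of their UMIs from mitochondrial genes. Total UMIs per library ran from 46114431 to 70169186, and any pair of libraries shared 3 to 11 barcode sequences. Ribosomal protein genes held 20.5%, 18.7% and 18.6% of the UMIs of whole marrows 1 to 3 and 30.7% and 29.6% in sorted libraries 1 and 2. The median barcode stood at 10.2%, 9.78% and 10.6% in whole marrow and at 30.2% and 29.4% after the sort.

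Of the 61 genes, 56 had over 1000 UMIs over all kept barcodes. RPL31 and RPL10L had 0, RPL37 and RPL3L had 2 each, and RPS27AP5 had 488. The genes with the highest level were RPL32 (8014 CPM, UMIs scaled to a total of 1000000), RPS12 (7320), RPS7 (6957), RPS23 (6947) and RPS26 (6812). Among the 56, the lowest were RPS19BP1 (115 CPM), RPL22L1 (347), RPL36AL (703), RPL4 (802) and RPL26 (834). No gene dominated: RPL32 supplied 3.30% of all ribosomal protein UMIs. Ribosomal protein genes have many near-identical processed copies in mammalian genomes, so differences in level between these genes also depend on how reads shared with copies were counted.

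Barcodes were placed in 12 gates by their raw UMIs of a few marker genes. The stem gate took at least 4 UMIs of SULT1B1 and TFPI together. The GATA1 gate took at least 2 UMIs with AHSP under 0.2% of UMIs, and the AHSP gate at least 0.2%. AHSP is the chaperone of alpha globin. The 2 gates are read here as earlier and later red cell precursors by AHSP alone. The GATA1 gate does not exclude other cells that carry GATA1. The MPO gate (at least 0.1%), ELANE gate (at least 1%), CAMP gate (at least 1%) and CXCL8 gate (at least 2 UMIs) follow neutrophils, since MPO and ELANE encode primary granule proteins, CAMP a secondary granule protein and CXCL8 a chemokine. VCAN (at least 2 UMIs) takes monocytes, VPREB1 (at least 5 UMIs) precursor B cells with 0 (non-cycling) or at least 2 (cycling) UMIs of MKI67 and TOP2A, MS4A1 (at least 2 UMIs) B cells and CD3E (at least 1 UMI) T cells.

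Markers other than the genes a gate requires were mostly higher in their own gate than elsewhere, in barcodes of a single gate. At least 2-fold above the median of the other gates were 8 of 8 stem markers in sorted libraries, 6 of 6 AHSP-gate markers, 3 of the 3 measured for the ELANE gate, 6 of 6 for the CAMP gate and 6 of 6 for the CXCL8 gate. In whole marrow 7 of 8 stem markers did so with HLF at 0, 5 of the 7 measured for the GATA1 gate with CNRIP1 and APOE at 0, and 3 of the 5 measured for the VCAN gate with FCN1 at 0. All 5 measured T-cell markers did so, as did 5 of 6 for each VPREB1 gate and for the MS4A1 gate. For the MPO gate 2 of 6 markers were among the symbols and both did so, so its name rests on few genes. ELANE is among these 2, and MPO is among the 3 measured for the ELANE gate. Barcodes of all other gates lay under the MPO and ELANE limits. That ELANE and MPO were higher here than in the other gates thus follows in part from the gating. Of B-lineage markers, CD79A was high in every gate and marked none. It had 12013 ± 282 CPM (SD, n = 2) in the sorted stem gate and 7131 ± 666 (n = 3) in the AHSP gate, against 7050 ± 819 (n = 3) in the MS4A1 gate.

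The share of UMIs from ribosomal protein genes was lower in the later than in the earlier gates of the neutrophil and red cell lineages, and most so in neutrophils. In whole marrows 1, 2 and 3 the ELANE gate stood at 26.7%, 23.8% and 24.2%. The CAMP gate stood at 14.7%, 11.4% and 11.9%, and the CXCL8 gate at 14.8%, 12.95% and 11.8%. Every ELANE value lay above every CAMP and CXCL8 value, while the CAMP and CXCL8 values overlapped and marrows 1 and 2 stood higher in the CXCL8 gate.

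Many CXCL8-gate UMIs came from deep barcodes that also passed another gate. With barcodes of more than 1 gate left out, the CXCL8 gate fell to 7.35%, 5.58% and 4.38%, below the CAMP gate at 12.03%, 9.06% and 9.60% in every marrow. The ELANE gate then stood at 28.6%, 25.9% and 26.8%. Barcodes of a single gate were therefore used for all tests, and the values below are theirs unless said otherwise.

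**Figure D1:**
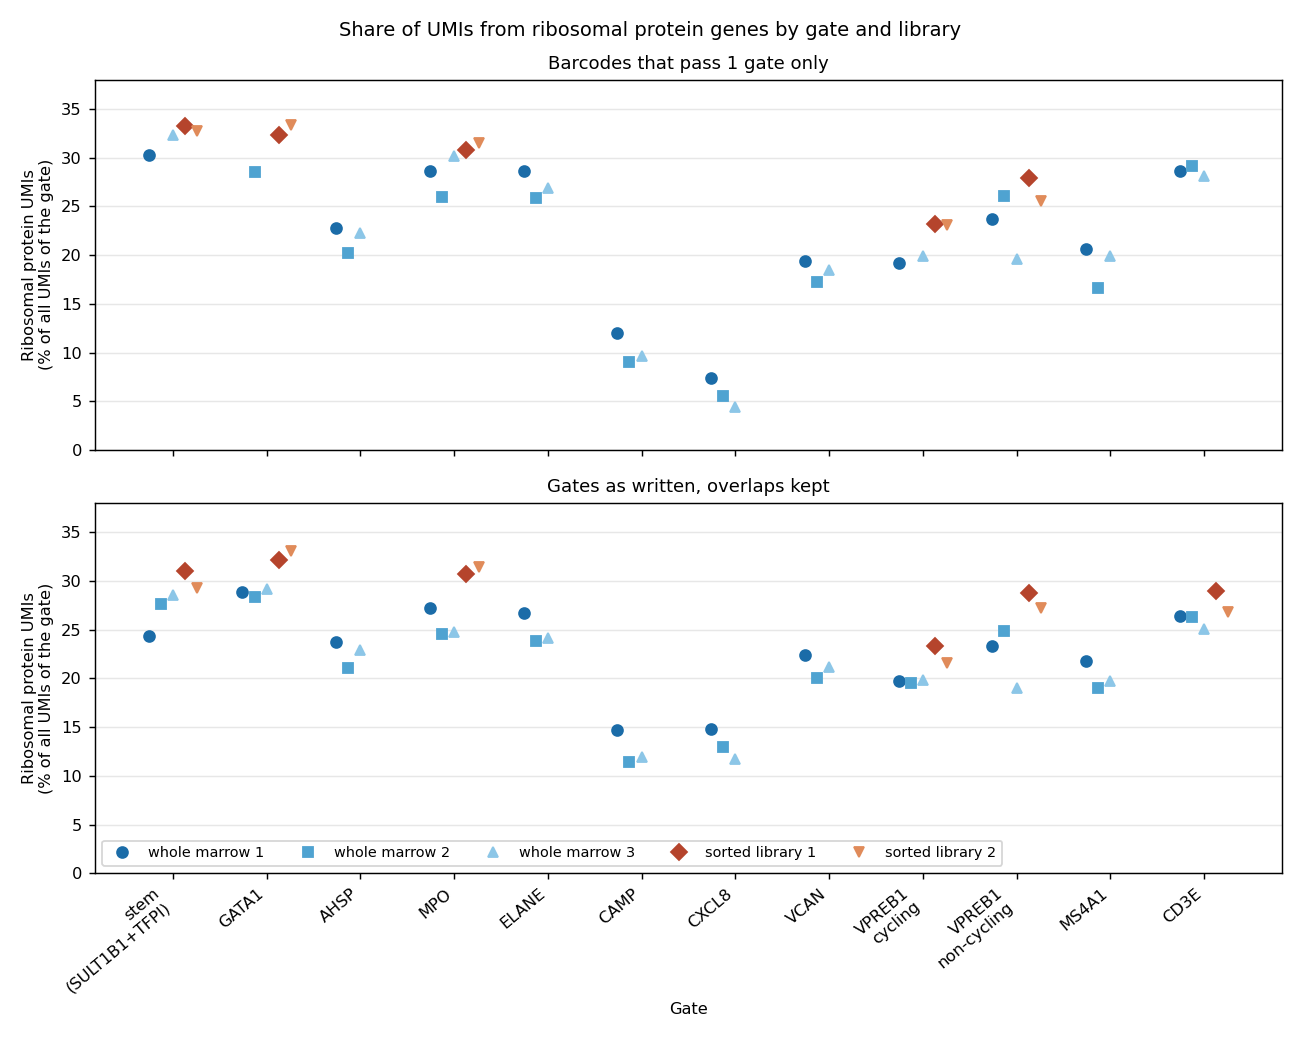
Share of all UMIs that came from the 61 ribosomal protein genes (y axis, %) in each gate (x axis), with a point per library that had at least 20 barcodes. The upper panel holds barcodes that pass a single gate, where the 3 CXCL8 points (4.38% to 7.35%) lie lowest; the lower panel keeps overlapping barcodes, where the CXCL8 points rise to 11.8% to 14.8%.

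At the other end of the scale, the sorted stem gate stood at 33.2% and 32.7% in sorted libraries 1 and 2. The sorted GATA1 gate, at 32.3% and 33.3%, overlapped it. The sorted MPO gate, at 30.8% and 31.5%, lay below the stem gate in both libraries, by 2.41 and 1.15 percentage points.

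In whole marrow the stem gate held 30.3% in marrow 1 and 32.4% in marrow 3, each from 20 barcodes, and the MPO gate 28.7%, 26.0% and 30.1%. T cells of the CD3E gate, which are mature cells, overlapped the MPO gate, at 28.6%, 29.1% and 28.1%, and lay below the stem gate. The VCAN gate held 19.4%, 17.2% and 18.5%. Mature cells were thus not uniformly low: the T-cell gate did not overlap the AHSP gate (22.7%, 20.3% and 22.3%), and lay above it in all 3 marrows.

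The share depends on what else fills the library. In the CAMP gate the 10 highest other features, led by S100A8, S100A12 and CAMP itself, took 41.2%, 42.6% and 45.7% of UMIs. Without them the ribosomal protein share was 20.5%, 15.8% and 17.7%, still below the ELANE gate treated the same way (39.1%, 34.1% and 35.7%). In the CXCL8 gate it was 10.46%, 7.74% and 6.94%, lowest of the 3 gates in every marrow.

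Depth also fell through the neutrophil gates. Median UMIs per barcode were 16976.5, 16231 and 24744 in the ELANE gate, 3473.5, 3997.5 and 6056.5 in the CAMP gate and 961, 1168 and 1977 in the CXCL8 gate. When each barcode was thinned to 500 UMIs, the median share per barcode was 27.0% ± 1.25 in the ELANE gate, 8.00% ± 1.25 in the CAMP gate and 2.33% ± 0.462 in the CXCL8 gate (SD, n = 3). The unthinned medians were 26.9% ± 1.31, 8.11% ± 1.24 and 2.34% ± 0.440. Thinning draws from a barcode's own UMIs and leaves its expected share unchanged, so near-equal medians follow from the method. Whether depth had a part in the differences between gates was not tested.

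Within gates the distributions differed. In the ELANE gate at least 99.0% of barcodes had a share over 15%. In the CXCL8 gate 89.2%, 93.4% and 91.5% of barcodes of marrows 1 to 3 had under 5%, while the 2.84%, 1.94% and 1.13% above 15% carried 19.3%, 15.9% and 6.71% of the gate's UMIs. These 26, 13 and 10 barcodes supplied 59.4%, 52.7% and 29.8% of its ribosomal protein UMIs. The CAMP gate lay between and was broad, with 23.0%, 33.8% and 28.3% of barcodes under 5% and 20.5%, 5.65% and 7.06% over 15%. Within it, barcodes with 1% to 2% CAMP held 6.86% ± 1.68 and those with 2% to 4% held 6.51% ± 1.90. Barcodes with 4% to 8% CAMP held 10.4% ± 2.01 and those above held 10.8% ± 1.35 (n = 3). In each marrow both strata above 4% CAMP held more than both below it, while within these pairs the order differed between marrows.

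**Figure D2:**
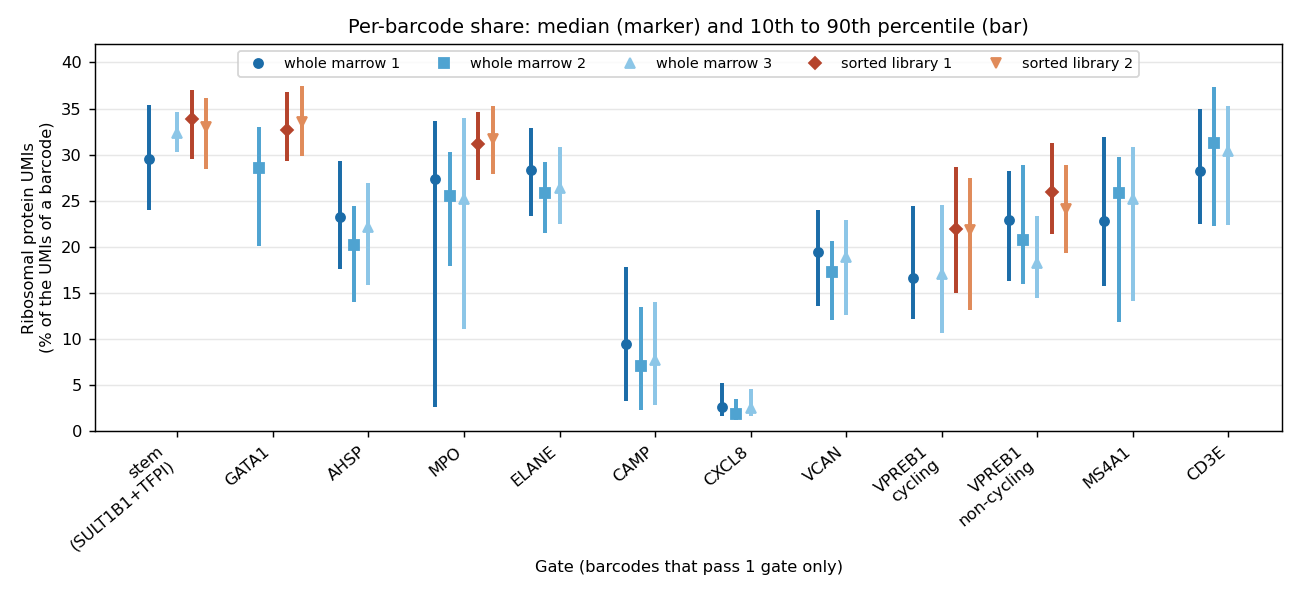
Share of UMIs from ribosomal protein genes within single barcodes (y axis, %) by gate (x axis): markers are the median over barcodes of a library and bars run from the 10th to the 90th percentile. CXCL8-gate medians average 2.34% against 26.9% in the ELANE gate.

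UMIs from free RNA can add to shallow barcodes. AHSP, a red cell gene, was present at 115 ± 22.8 CPM (n = 3) in the CXCL8 gate against 10498 ± 1781 in the AHSP gate. CAMP was present at 722 ± 132 CPM in the CXCL8 gate against 75061 ± 7298 in the CAMP gate. How far free RNA supplied the ribosomal protein UMIs of the CXCL8 gate was not tested.

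Proliferation, read from UMIs of MKI67 and TOP2A, went with the share differently by gate. In the CAMP gate cycling barcodes held 12.1% ± 1.83 and non-cycling barcodes 8.42% ± 1.28 (n = 3). In the ELANE gate the values were 26.7% ± 1.36 and 27.8% ± 1.24. Most AHSP-gate barcodes, 750 over 3 marrows, were cycling and held 21.7% ± 1.24 (n = 3). Only marrow 1 had at least 20 non-cycling barcodes in the AHSP gate. There 27 non-cycling barcodes held 30.9% (median 1782 UMIs) and cycling ones 22.6% (median 38985 UMIs). In the MPO gate of whole marrow 1, 37 non-cycling barcodes held 30.2% (median 749 UMIs) and cycling ones 28.1% (median 40890 UMIs). In sorted libraries the order was the reverse of that in the CAMP gate: cycling stem-gate barcodes held 31.3% ± 0.138 against 34.1% ± 0.546 (n = 2), and cycling MPO-gate barcodes 30.0% ± 0.571 against 32.7% ± 0.285. These are descriptions without a test, and cycling barcodes are picked through UMIs that deeper barcodes show more often.

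Gene by gene, the decline from the ELANE to the CAMP gate touched nearly every ribosomal protein gene. RPL32, a large-subunit protein with the highest level of all, had 8813, 8007 and 8266 CPM in the ELANE gate and 3765, 2842 and 2877 CPM in the CAMP gate of marrows 1 to 3. RPS12, a small-subunit protein, had 13372, 11658 and 11550 CPM and then 4582, 3091 and 3203 CPM. In both genes all 3 marrows fell and the gates did not overlap.

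Across the 57 genes tested, 53 were lower and 0 higher in the CAMP gate (edgeR quasi-likelihood test on summed counts, library as block, Benjamini-Hochberg adjusted p under 0.05). Over all 11149 features tested, 22.3% were lower and 28.9% higher. The median log2 fold change was -1.22 for the ribosomal protein genes, a loss of 57.0%, against 0.12 over all features. The middle 50% of them lay between -1.50 and -1.02.

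The size of the fall ran over 2 log2 units among these genes. RPL22L1 fell most, by 2.18 ± 0.14 on the log2 scale (SE; edgeR adjusted p = 3.87e-20); it is the paralog of RPL22, which fell by 1.24 ± 0.15. RPL27A, of the large subunit, fell by 1.85 ± 0.16, and RPS15, of the small subunit, by 1.80 ± 0.15. RPS6, the substrate of S6 kinase, fell by 1.76 ± 0.16.

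At the other end, RPS27 did not pass the test (log2 fold change -0.25 ± 0.15, edgeR adjusted p = 0.152), with 5061, 6355 and 6856 CPM in the ELANE gate and 3879, 4398 and 4187 CPM in the CAMP gate. Its values were lower in the CAMP gate of each marrow and did not overlap, but by less than those of most subunits. RPL36AL, paralog of RPL36A, had 790, 710 and 721 CPM and then 666, 538 and 463 CPM (-0.14 ± 0.13, edgeR adjusted p = 0.399). RPS19BP1, which is no subunit, had 59.5, 95.5 and 88.1 CPM and then 57.2, 75.9 and 68.8 CPM, overlapping values (0.04 ± 0.14, edgeR adjusted p = 0.845). RPS27AP5 was the fourth gene that did not pass (-1.07 ± 0.61). RPS10, of the small subunit, fell by 0.50 ± 0.14 and RPL11 by 0.53 ± 0.15, the smallest falls that passed; that of RPL11 no longer passed with every barcode thinned to 500 UMIs (-0.38, edgeR adjusted p = 0.0832).

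From the CAMP to the CXCL8 gate, 51 of the 57 genes were lower and 1 was higher, where 17.4% of all features tested were lower and 24.4% higher (edgeR, same fit). The median log2 fold change was -1.06, a loss of 52.2%, against 0.09 over all features. The summed CXCL8-gate values owe much to the few barcodes with a share over 15%. An alternative chosen after seeing the data therefore thinned every barcode to 500 UMIs before summing, so that each weighed the same. It gave 52 of 56 genes lower and 0 higher at this step, where 18.1% of all features were lower and 25.0% higher (edgeR), and a larger median fall, by 1.51. At the first step it gave 52 of 56 lower and a median of -1.23, where 9.95% of all features were lower and 19.4% higher.

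The genes that fell most from the CAMP to the CXCL8 gate were others than before. RPS24 had 5264, 3808 and 4416 CPM in the CAMP gate and 2019, 1459 and 1242 CPM in the CXCL8 gate, a fall by 1.85 ± 0.18 on the log2 scale (edgeR adjusted p = 3.46e-13). Its values did not overlap. With barcodes thinned it fell by 2.33 ± 0.18.

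RPS10, with a small fall before, fell by 1.69 ± 0.15, from 4945, 3500 and 3619 CPM to 2076, 1433 and 1220 CPM. RPL35A fell by 1.63 ± 0.16 and RPS27A, which is made as a fusion with ubiquitin, by 1.62 ± 0.16. RPS27, which had not passed the test at the first step, fell by 1.52 ± 0.15. The CAMP gate thus held RPS10, RPS24 and RPS27 at levels closer to the ELANE gate than those of most subunits, and their larger fall came at the second step.

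The reverse held for genes that fell early. RPL4, a large-subunit protein, went from 348, 515 and 552 CPM in the ELANE gate to 99.1, 141 and 124 CPM in the CAMP gate, a fall by 1.65 ± 0.14. It then stood at 186, 185 and 121 CPM in the CXCL8 gate (0.12 ± 0.15, adjusted p = 0.575 by edgeR), higher than in the CAMP gate in 2 of 3 marrows. RPL22L1 stood at 81.3, 80.9 and 61.9 CPM in the CAMP gate and 103, 106 and 70.3 CPM in the CXCL8 gate (-0.02 ± 0.15, edgeR adjusted p = 0.963), so its CPM, which use total UMIs, were higher in each marrow while the TMM-scaled fit gave no difference that passed. RPS6 had a log2 fold change of -0.30 ± 0.15 (edgeR adjusted p = 0.123) and RPS15 fell by 0.43 ± 0.15. With barcodes thinned RPL4 stood at -0.35 ± 0.24 and RPL22L1 at -0.04 ± 0.27, neither passing, while RPS6 passed the test (-0.65 ± 0.18, edgeR adjusted p = 0.00111). The single gene that rose was RPS19BP1, by 0.36 ± 0.14 (edgeR adjusted p = 0.0399), a call that was lost without whole marrow 2 and also with overlapping barcodes kept, no filter on low counts, no library block, only these gates fitted or barcodes thinned.

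**Figure D3:**
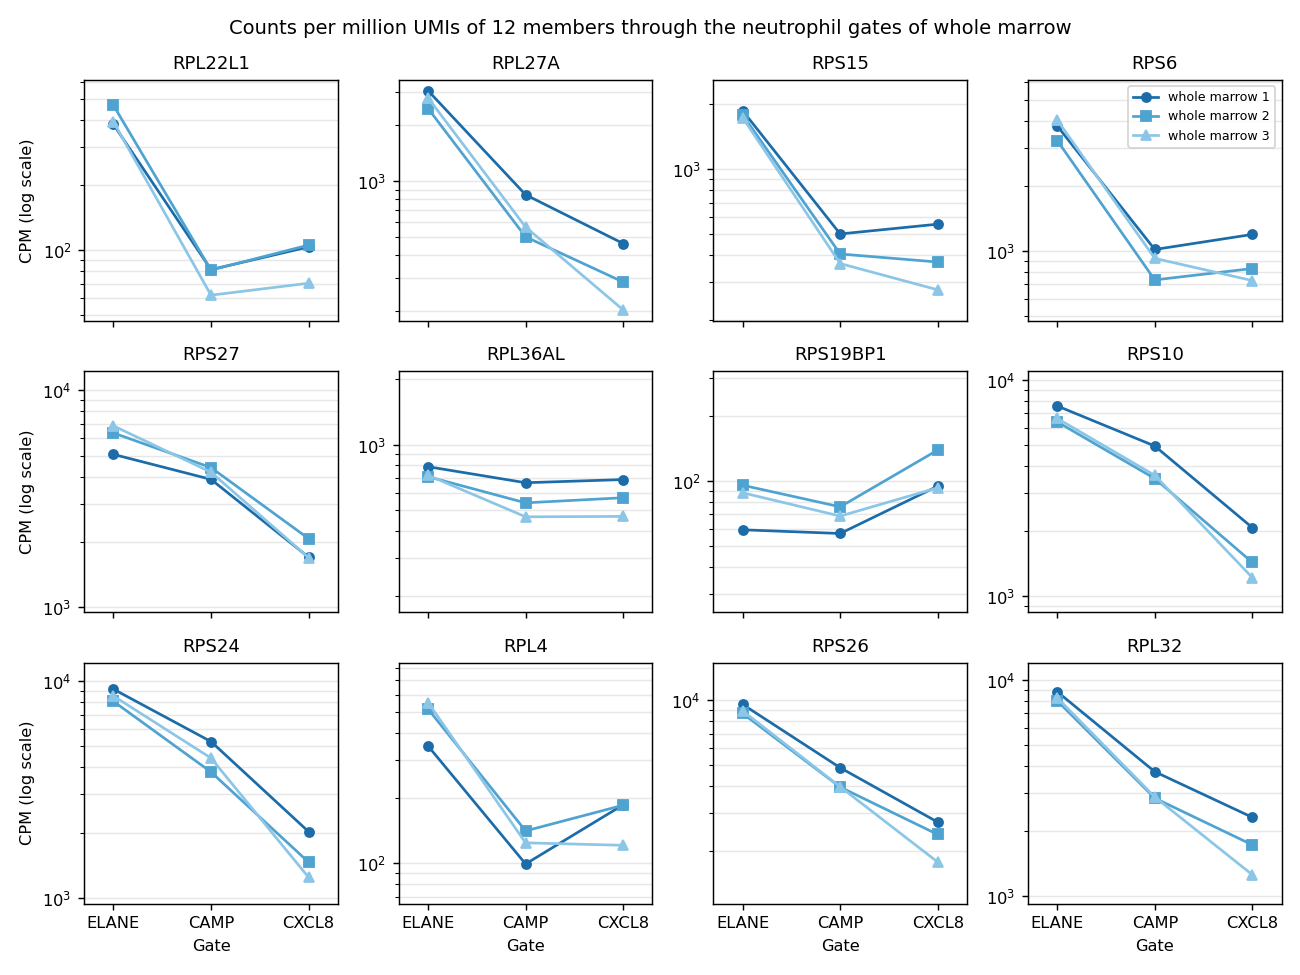
CPM (y axis, log scale; every panel has its own range) of 12 genes in the ELANE, CAMP and CXCL8 gates of the 3 whole marrows, with a line per marrow. RPL22L1, RPS15, RPS6 and RPL4 drop mainly at the first step and RPS27, RPS10 and RPS24 mainly at the second. RPL36AL stays within a narrow range (463 to 790 CPM), and RPS19BP1 is higher in the CXCL8 than in the CAMP gate of each marrow.

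The 5 Diamond-Blackfan anemia genes followed here (RPS24, RPS26, RPL5, RPL11, RPL35A) were lower at both steps, as were most ribosomal protein genes, and by unequal amounts. RPS26 fell by 0.81 ± 0.15 and then by 1.23 ± 0.15, and RPL5, which with RPL11 and 5S rRNA can bind the p53 regulator MDM2, by 1.16 ± 0.15 and 0.88 ± 0.15. The stalk gene RPLP0 fell by 1.50 ± 0.15 and 1.06 ± 0.15. The weight of the small subunit changed in opposite directions at the 2 steps. UMIs of RPS genes per UMI of RPL and RPLP genes were 1.24, 1.14 and 1.16 in the ELANE gate, 1.37, 1.27 and 1.29 in the CAMP gate and 1.16, 1.10 and 1.11 in the CXCL8 gate of marrows 1 to 3. The CAMP gate was highest and the CXCL8 gate lowest of the 3 in each marrow, though with barcodes thinned the CXCL8 gate of marrow 2 (1.16) lay above its ELANE gate (1.14), and the sorted MPO gate stood at 1.05 and 1.03.

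When summed ribosomal protein UMIs served as library size, so that each gene was measured against the others, 8 genes were higher and 18 lower in the CAMP than the ELANE gate, where 56.6% of all features were higher and 7.18% lower. Highest were RPS19BP1, RPL36AL and RPS27 and lowest RPL22L1, RPL27A and RPS15. From the CAMP to the CXCL8 gate 13 were higher and 7 lower, where 53.9% of all features were higher and 2.95% lower. Here RPS19BP1, RPL4 and RPL22L1 were highest and RPS24, RPS10 and RPL35A lowest among the genes called. The falls were therefore not of equal size among the genes at either step.

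**Figure D4:**
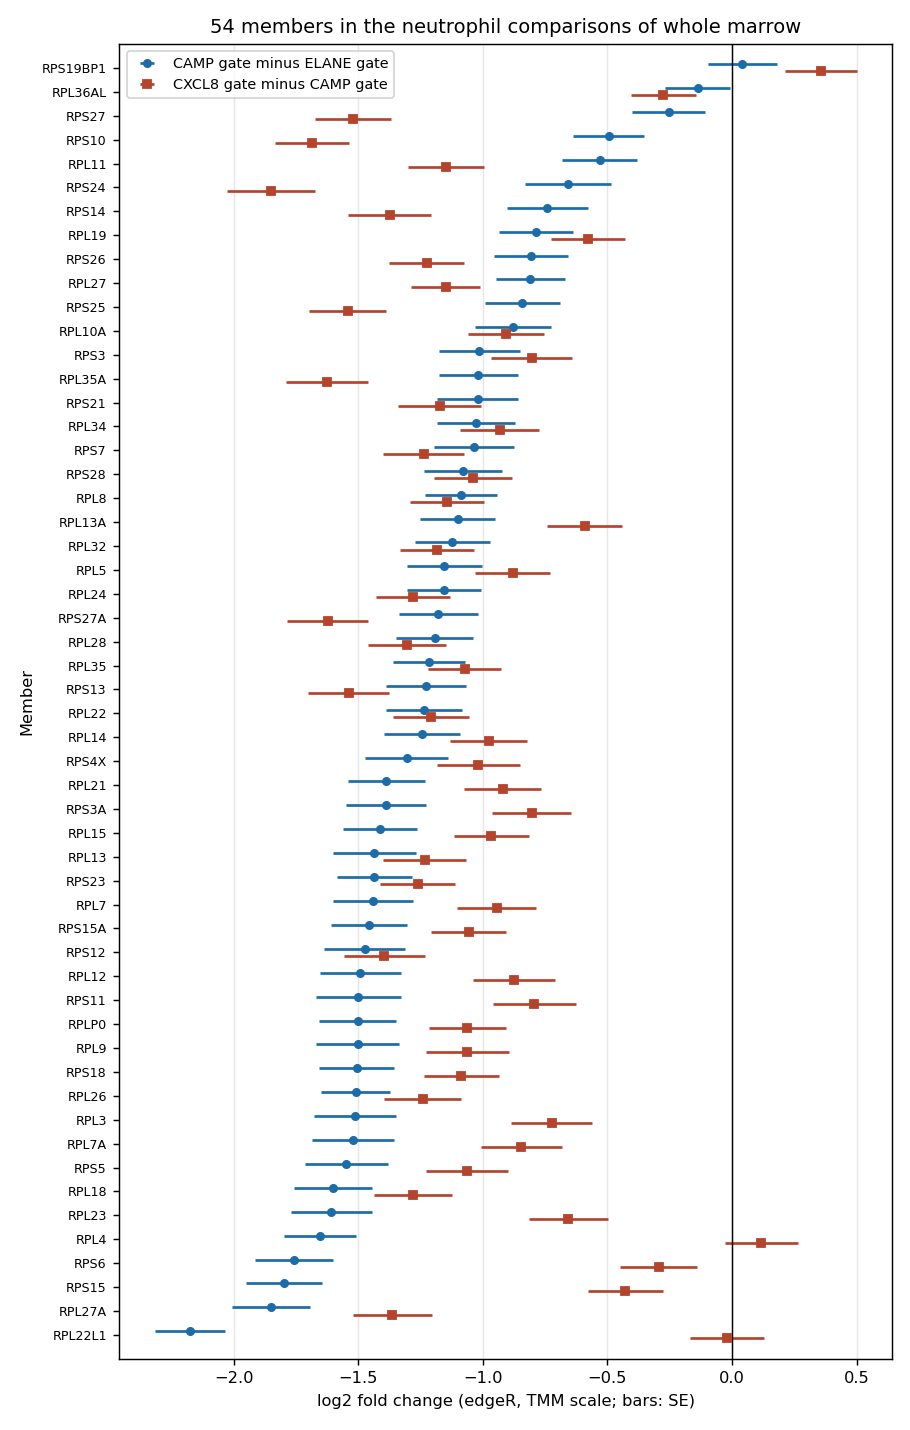
Log2 fold change of 54 ribosomal protein genes (points, with SE as bars; x axis) from the ELANE to the CAMP gate (circles) and from the CAMP to the CXCL8 gate (squares) in whole marrow, ordered by the first. The first runs from -2.18 (RPL22L1) to 0.04 (RPS19BP1), the second from -1.85 (RPS24) to 0.36 (RPS19BP1).

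The CAMP gate shared markers with both neighbours. Summed CPM of the ELANE-gate markers were 103970 to 144540 in the ELANE gate, 2984 to 6838 in the CAMP gate and 456 to 893 in the CXCL8 gate. Those of the CXCL8-gate markers, S100A12 among them, were 111790 to 121210 in the CAMP gate and 97169 to 137220 in the CXCL8 gate; their part in the result was not tested. The counts of 53 and 52 genes called stayed between 53 and 54 and between 50 and 52 when any library was left out. With overlapping barcodes kept, the second step had 36 genes lower and 2 higher and a median of -0.41.

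Other parts of the translation machinery, taken as lists, behaved unequally; over all features 22.3% were lower and 28.9% higher from the ELANE to the CAMP gate. Of 7 further genes of the ribosome and nascent chain (RPSA, RACK1, NACA and BTF3 among them), 6 fell and 0 rose from the ELANE to the CAMP gate, led by RACK1, a small-subunit scaffold (by 1.77 ± 0.16), and RPSA, a small-subunit protein (by 1.43 ± 0.17). Ribosome biogenesis genes were lower in 33 of 40 cases and higher in 2, with a median of -1.95. POLR1A, the largest subunit of RNA polymerase I, had 19 UMIs over the 3 ELANE-gate sums and 1 over the CAMP-gate sums, UTP4 fell by 3.73 ± 0.32 and nucleophosmin (NPM1), chosen here after its value was seen, by 3.12 ± 0.17, while RRP1B rose by 2.08 ± 0.16 and RRP12 by 1.66 ± 0.23 (edgeR).

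Translation factors moved less, with 22 of 32 lower, 3 higher and a median of -0.60. EEF1B2, an elongation factor subunit, fell by 1.79 ± 0.19 and EIF3J by 1.52 ± 0.14, while EIF4G2 rose by 0.95 ± 0.14 and EIF4A2 by 0.80 ± 0.15. Of 61 mitochondrial ribosomal proteins 36 fell and 2 rose (median -0.56), with MRPL37 falling by 2.29 ± 0.18 and MRPL33 rising by 0.92 ± 0.16. Of 7 ribosome rescue and recycling genes ABCE1, which splits ribosomes, fell by 1.86 ± 0.24 and ANKZF1 rose by 1.47 ± 0.27.

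At the second step, into the CXCL8 gate, the lists are read beside the 24.4% of all features that were higher and the 17.4% that were lower. Biogenesis genes, with 8 higher and 6 lower of 40 (median -0.08), were near these shares, with NCL (nucleolin) falling by 1.16 ± 0.15, PES1 by 1.67 ± 0.37, RRP1B rising by 1.31 ± 0.14 and UTP4 by 1.44 ± 0.58. Of 32 translation factors 7 were higher, again near the share over all features, and 9 lower (median -0.13). EIF4A2 rose again, by 1.25 ± 0.14, and EIF3K fell by 1.18 ± 0.13. Of 61 mitochondrial ribosomal proteins 38 were lower and 3 higher (median -0.84). Of the 7 further ribosome and nascent-chain genes 5 were lower and 0 higher, among them TPT1 (by 0.42 ± 0.15), which had not passed at the first step (-0.13 ± 0.15). Of 7 rescue genes 3 were lower and 0 higher: ABCE1 fell again, by 1.90 ± 0.56, while ANKZF1 (by 1.68 ± 0.35) had risen at the first step and NEMF (by 0.43 ± 0.18) had not passed there.

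In the red cell lineage the share was lower in the AHSP gate (23.7%, 21.0% and 22.9% in marrows 1 to 3, overlaps kept) than in the GATA1 gate (28.9%, 28.4% and 29.2%), without overlap. In the AHSP gate a few features filled the library: in barcodes of a single gate the 10 highest other features held 24.5%, 26.7% and 26.3% of UMIs. Without them, in barcodes of a single gate, the share was 30.1%, 27.6% and 30.2% in the AHSP gate and 32.1% in the GATA1 gate of marrow 2. Barcodes with 0.2% to 0.5% AHSP held 26.1% ± 2.46 (n = 2), those with 0.5% to 1% 24.0% ± 2.15 and those with 1% to 2% 19.9% ± 1.99 (n = 3), so the share was lower where AHSP was higher.

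The fit gave no general fall with TMM factors, and on total UMIs the ribosomal protein genes moved about as far as all features. With TMM factors 0 of 57 genes were lower and 1 was higher, where 12.2% of all features were lower and 12% higher (edgeR), while on total UMIs 17 were lower and 0 higher. The median log2 fold change was 0.17 against 0.12 over all features with TMM factors and -0.41 against -0.38 on total UMIs. How many of all features were lower on total UMIs is not given here, so the count on that scale is not read as particular to these genes. The GATA1 arm of this fit is a single sum, that of marrow 2, whose spread was taken to be that of the other gates, so SE and p do not measure replicates of that gate. The gene that rose was RPS19BP1, by 1.14 ± 0.23 (edgeR adjusted p = 8.39e-05), a call lost on total UMIs (0.60, adjusted p = 0.075), with 103, 158 and 156 CPM in the AHSP gate and 103 CPM in the GATA1 gate of marrow 2. The 5 Diamond-Blackfan anemia genes had log2 fold changes from 0.11 to 0.32 and none passed the test. Relative to the ribosomal protein UMIs the count was again 1 higher and 0 lower, where 8.30% of all features were higher and 11.7% lower.

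This comparison rests on little. The GATA1 gate of marrows 1 and 3 held 19 barcodes each, under the minimum of 20, so its whole-marrow value is that of 34 barcodes of marrow 2. The direction also depends on the barcodes taken: with a minimum of 10 barcodes 3 were lower and 1 higher, and with overlapping barcodes kept 4 were lower and 1 higher. With the same single sum, and beside the 12% of all features that were higher and the 12.2% that were lower, 7 of 40 biogenesis genes were lower and 1 higher, 14 of 61 mitochondrial ribosomal proteins were higher and 0 lower, and 7 of 32 translation factors were higher and 2 lower.

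Among sorted progenitors few ribosomal protein genes passed the test. From the stem to the MPO gate 2 of 57 genes were higher and 0 lower, where 7.48% of all features were higher and 15.4% lower (edgeR); the median was -0.08 against -0.13 over all features. From the stem to the GATA1 gate 1 was higher and 0 lower, where 4.01% were higher and 8.23% lower, with a median of -0.07 against -0.07.

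RPL22L1 was the gene that rose in both. It had 306 and 293 CPM in the stem gate of sorted libraries 1 and 2, 505 and 482 CPM in the MPO gate and 484 and 464 CPM in the GATA1 gate. The rise was 0.69 ± 0.16 into the MPO gate (edgeR adjusted p = 0.000872) and 0.60 ± 0.16 into the GATA1 gate (adjusted p = 0.0076), and the gates did not overlap. RPL22 itself had log2 fold changes of -0.08 ± 0.18 and -0.13 ± 0.18. RPS19BP1 rose into the MPO gate as well, by 0.57 ± 0.16, from 85.1 and 88.2 CPM to 127 and 135 CPM. The 2 comparisons share the stem-gate sums.

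With 2 sorted libraries these calls are thin: leaving out either sorted library removed them, and a fit of only the gates compared called 28 genes lower and 5 higher in the MPO gate. The share over all features in the fit of only these gates is not given here, so its counts are not read as particular to these genes. Counted against the ribosomal protein UMIs themselves, the numbers of the main fit were found again, 2 higher and 0 lower where 7.70% and 10.8% of all features were, and 1 higher and 0 lower where 3.85% and 6.24% were. Beside the 7.48% of all features that were higher and the 15.4% lower in the MPO gate, 4 of 40 biogenesis genes were higher and 0 lower, led by RRS1 (0.75 ± 0.20), and 8 of 61 mitochondrial ribosomal proteins were higher and 0 lower, led by MRPS34 (1.01 ± 0.16). In the GATA1 gate no gene of either list passed, and HBS1L, a rescue factor, rose by 0.81 ± 0.16.

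In the B lineage, precursor cells that cycled had a lower share than those that did not in 3 of 4 libraries. In sorted libraries 1 and 2 the cycling VPREB1 gate held 23.2% and 23.1% and the non-cycling gate 27.9% and 25.5%. In whole marrow 1 the values were 19.2% and 23.7%, but in whole marrow 3 they were 19.9% and 19.6%, so 3 of 4 libraries showed the difference. The gates also differed in depth. Median UMIs per barcode averaged 9580 in the cycling and 2446 in the non-cycling gate of sorted libraries (n = 2). In whole marrow they averaged 9420 (n = 2) and 2047 (n = 3). The part of depth in the difference was not tested. The fit over sorted libraries called 3 of 57 genes higher and 1 lower in non-cycling barcodes, where 11.9% of all features were higher and 8.43% lower (edgeR; median 0.21 against 0.14).

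RPS24 rose by 0.64 ± 0.21, from 7568 and 6422 CPM in cycling to 10762 and 10447 CPM in non-cycling barcodes. RPL36AL rose by 0.55 ± 0.16, from 671 and 671 CPM to 971 and 954 CPM, and RPS14, whose loss is linked to the human 5q- syndrome, by 0.54 ± 0.20. RPS19BP1 fell by 0.75 ± 0.17, from 124 and 208 CPM to 96.7 and 89.97 CPM. The values of these 4 genes did not overlap between the gates.

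Relative to the ribosomal protein UMIs 0 genes were higher and 3 lower, where 4.54% of all features were higher and 11.4% lower: RPS19BP1 fell by 1.01, RPL22L1 by 0.62 and RPS15 by 0.53. The calls were unstable across alternative fits, for which shares over all features are not given here. Without sorted library 1 a single gene was called, lower, and without sorted library 2 none were, while 10 were called without whole marrow 1 and 9 without whole marrow 2; with overlapping barcodes kept 30 genes were higher and 1 lower. Beside the 11.9% of all features that were higher and the 8.43% lower in non-cycling barcodes, 7 of 40 biogenesis genes were lower (NOP56 by 0.73 ± 0.18) and 1 higher, DDX10 (0.98 ± 0.20). Of 61 mitochondrial ribosomal proteins 9 were lower, led by MRPL51 (by 1.07 ± 0.21), and 1 higher.

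MS4A1-gate B cells of whole marrow stood at 20.6%, 16.6% and 19.96% against 23.7%, 26.1% and 19.6% in the non-cycling VPREB1 gate. Without the 10 highest other features, among them the immunoglobulin gene IGKC in marrows 2 and 3, the order was no longer the same: 27.4%, 28.3% and 27.7% against 26.5%, 29.3% and 21.6%. The fit, whose scaling is set by the bulk of features, called 17 of 57 genes higher and 0 lower in the MS4A1 gate, where 6.03% of all features were higher and 6.12% lower (edgeR), but on total UMIs with no scaling factor 13 were lower and 1 higher. The median was 0.35 against -0.07 over all features, and on total UMIs -0.25 against -0.55, so on both scales it stood above that of all features. How many of all features were lower on total UMIs is not given here.

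RPL22L1 again led, with 275, 298 and 203 CPM in the VPREB1 gate of marrows 1 to 3 and 527, 371 and 497 CPM in the MS4A1 gate, a rise by 1.45 ± 0.18 without overlap (edgeR adjusted p = 6.15e-09). RPL7A, of the large subunit, rose by 0.88 and RPS15 by 0.85 ± 0.16, with RPS23 at 0.84. RPL5 of the Diamond-Blackfan genes rose by 0.47 ± 0.15, and on total UMIs it turned to -0.14. Leaving out whole marrow 1 or whole marrow 3 left 10 and 9 genes higher.

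Relative to the ribosomal protein UMIs 5 genes were higher and 1 lower in the MS4A1 gate, where 2.80% of all features were higher and 9.92% lower; the gene that was lower was RPS24. RPS24 had 10735, 10749 and 8778 CPM in the VPREB1 gate and 5494, 4879 and 5957 CPM in the MS4A1 gate. Plasma-cell markers (JCHAIN, MZB1, XBP1, DERL3) summed to 2246, 5694 and 3024 CPM in the MS4A1 gate and to 219, 149 and 223 CPM in the VPREB1 gate; their part in these differences was not tested. Beside the 6.03% of all features that were higher and the 6.12% lower in the MS4A1 gate, 7 of 40 biogenesis genes were higher and 0 lower, with NHP2 rising by 1.32 ± 0.25, and 11 of 61 mitochondrial ribosomal proteins were higher and 2 lower.

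RPL22L1 varied against its paralog RPL22 across the gates. Per 100 RPL22 UMIs it had 7.94 and 8.69 UMIs in the sorted stem gate, 14.0 and 14.4 in the sorted MPO gate and 13.5 and 14.0 in the sorted GATA1 gate. In whole marrow it had 10.1, 14.9 and 11.4 in the ELANE gate, 5.40, 8.59 and 5.28 in the CAMP gate and 11.7, 17.6 and 14.1 in the CXCL8 gate. The MS4A1 gate had the highest mean ratio, with 21.7, 19.97 and 20.9, though marrow 2 stood at 20.9 in the AHSP gate as well, and the VCAN and CD3E gates averaged 7.27 ± 1.09 and 7.90 ± 1.70 (SD, n = 3). RPL22 and RPL22L1 have similar coding sequences, so reads that fit both could have been dropped or split.

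Between sorted and unsorted cells of the MPO gate no ribosomal protein gene passed the test. Of 56 genes tested between 2 sorted and 3 whole-marrow libraries 0 were higher and 0 lower, where 0.0280% of all features were higher and 0.448% lower (edgeR), with 2 at an unadjusted p under 0.05. DESeq2 called 0 as well. Relative to the ribosomal protein UMIs 0 were higher and 0 lower, where 0% of all features were higher and 0.392% lower. The median was 0.19 against 0.01 over all features, and the largest differences, RPL14 (0.61 ± 0.48) and RPLP0 (0.48 ± 0.26), were in genes low in whole marrow 1. Of the whole-marrow MPO-gate barcodes 31 of 93, 10 of 65 and 8 of 27 held under 3 MPO UMIs.

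Single libraries differed in a few genes across all gates compared. In whole marrow 1 RPL26 stood at 81.6 CPM over all cells, against 915 and 836 CPM in whole marrows 2 and 3 and 1075 and 1174 CPM in sorted libraries 1 and 2. As a share of ribosomal protein UMIs it was 11.4-fold lower than the mean of marrows 2 and 3, the median of the 9 gates that all marrows filled. RPL14 was 3.02-fold lower, RPL28 2.03-fold, RPS21 1.89-fold and RPLP0 1.72-fold.

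Of 56 genes compared, 9 lay over 0.5 log2 units below the other marrows and 0 above; the remaining 4 were RPS19BP1, RPL35, RPS28 and RPS27. 9 genes were lowest in whole marrow 1 in every gate and 8 were highest in every gate. Each of these 3 marrows is a different dog and a different library, so dog and library cannot be told apart. Sorted library 2 stood below sorted library 1 in RPS21 (log2 ratio -0.96), RPS28 (-0.93), RPL34 (-0.54) and RPS27 (-0.51), the median of 5 gates, and 0 genes stood as far above. Whole marrows 2 and 3 come from the same dogs as the sorted libraries. Over all their cells RPS21 had 1110 and 1186 CPM, RPS28 5242 and 5006, RPL34 2345 and 2802 and RPS27 5231 and 5439. The cause of the offsets between sorted libraries was not tested. The library entered the fits as a block, so these offsets do not enter the comparisons between gates of the same libraries.

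**Figure D5:**
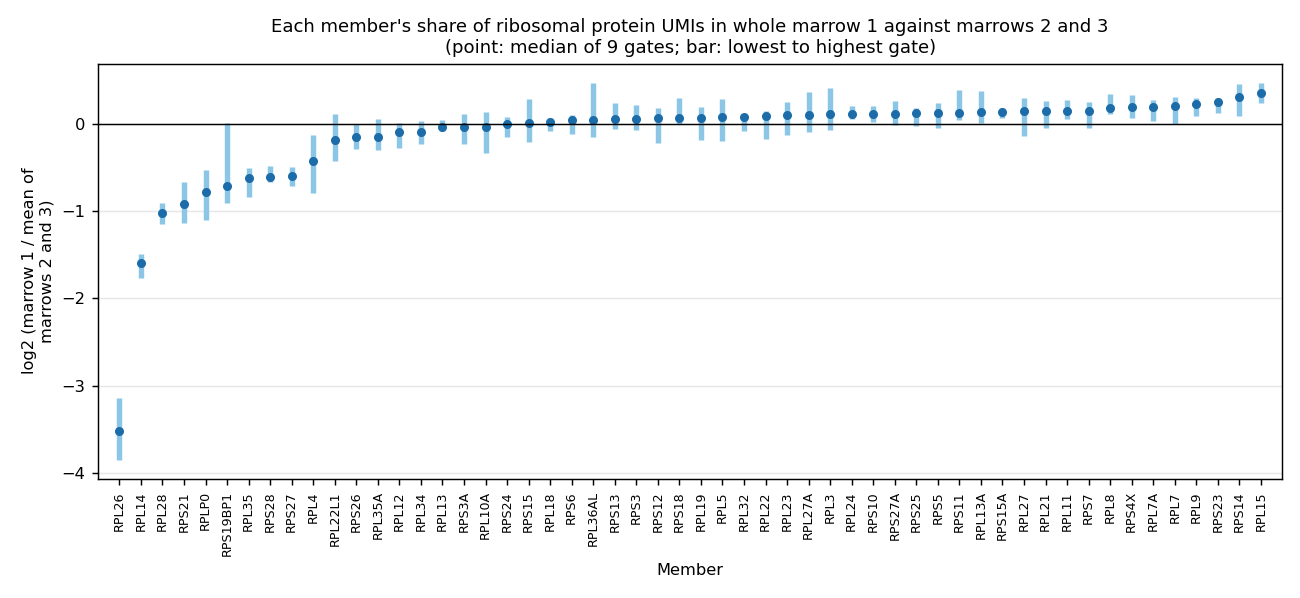
Log2 ratio of a gene's share of ribosomal protein UMIs in whole marrow 1 to the mean of whole marrows 2 and 3 (y axis), for 54 genes (x axis, ordered); points are the median of 9 gates and bars run from the lowest to the highest gate. RPL26 stands apart at -3.51, followed by RPL14 at -1.59 and RPL28 at -1.02.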

How the data were processed

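Gene counts per barcode were analysed as deposited: the authors' matrices hold whole-number UMI counts, made with Cell Ranger 7.0.1 per the file headers (7.1.0 per the submitters' processing notes) on CanFam 3.1 per the same notes. How reads that map to several genes were treated is not stated in the sources used here. No doublets were removed (a caller marked 1304 barcodes, left out as an alternative). Barcodes that passed more than 1 gate stayed out of tested sums; for this the MPO gate was limited to barcodes under 1% ELANE. Counts were summed per library and gate (at least 20 barcodes) and fitted together with edgeR 4.0.16 (R 4.3.3; quasi-likelihood, robust, library as block, features kept by filterByExpr, TMM factors from features with a mean of at least 20 CPM), with Benjamini-Hochberg adjustment over all features tested. DESeq2 1.42.0 was an alternative. Each fold change carries an SE derived from its F statistic. CPM and shares use the UMIs of a gate as total. The script was tested on simulated data. The replicates are libraries of separate dogs, and the sorted libraries come from the dogs of whole marrows 2 and 3, with no label for which from which. A few genes counted here are not reported by name. Genes were named by role, by the 3 largest changes per direction and by level (5 highest, 5 lowest), and in other lists by the 2 largest changes per direction. The genes, gates and lists were chosen with earlier results of these data known. Total UMIs per library ran from 46114431 to 70169186, and the smallest sums held 20 barcodes.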

Additional observations from a re-analysis of the deposited data

How the results depend on the processing

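Of 129 alternative counts over the 8 comparisons, 93 kept the direction and lay within 1.5 times of the count reported, 14 were lower, 12 higher and 10 reversed; the cause was not tested unless named. Shares over all features accompany the main fits, those relative to ribosomal protein UMIs and those with thinned barcodes. They are not given for the other settings, whose counts are therefore not read as particular to these genes. More ribosomal protein genes were lower than higher at both neutrophil steps in the settings run other than that relative to ribosomal protein UMIs, although with overlaps kept the share from the CAMP to the CXCL8 gate was higher in marrows 1 and 2 and the count of lower genes was 36. With each barcode thinned to 500 UMIs, chosen after seeing the data, counts were 52 and 52. Relative to ribosomal protein UMIs, 26 genes differed between the CAMP and ELANE gates (8 higher, 18 lower) and 20 between the CXCL8 and CAMP gates (13 higher, 7 lower), where the common fall is taken out by construction. AHSP against GATA1 gate gave 17 genes on total UMIs (17 lower), 5 with overlaps kept (4 lower), 7 at a mitochondrial limit of 20% (7 higher) and 4 with at least 10 barcodes per sum (3 lower), the last chosen after seeing the data. On total UMIs the median of all features stood at -0.38 in this comparison, at -0.55 in the MS4A1 comparison and at 0.37 in the CXCL8 comparison. MS4A1 against VPREB1 gate gave 14 on total UMIs (13 lower), 6 relative to ribosomal protein UMIs, 26 with DESeq2, 26 with overlaps kept and 31 with at least 50 barcodes per sum. Non-cycling against cycling VPREB1 gate gave 3 relative to ribosomal protein UMIs (3 lower), 3 with DESeq2 (2 lower), 31 with overlaps kept and 12 with at least 50 barcodes. At that minimum MPO against stem gate gave 5 (3 lower) and GATA1 against stem gate 2. Sorted against whole marrow in the MPO gate gave 2 with overlaps kept (1 higher, 1 lower).

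The library was the replicate block of the fits. With no replicate block, counts were 50 (CAMP against ELANE), 48 (CXCL8 against CAMP), 1 (AHSP), 9 (MS4A1), 1 (MPO against stem), 0 (GATA1 against stem) and 0 (VPREB1). With only the gates compared and the replicate block kept they were 55, 53, not fitted for AHSP, 9, 33 (28 lower), 3 (1 lower) and 14 (3 lower). A block by dog for sorted against whole marrow, which assumes that sorted libraries 1 and 2 came from marrows 2 and 3 in that order, left 0. Leaving out each library in turn gave 53 to 54, 50 to 52, 1 to 1, 9 to 24, 0 to 3, 0 to 1, 0 to 10 and 0 to 0 genes, in the order above with sorted against whole marrow last; without sorted library 1 the VPREB1 count was 1, lower.

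Of 691 alternatives for single named genes 637 kept the call, 52 lost it and 2 reversed: RPL3 from the CAMP to the CXCL8 gate stood at 0.17 with overlaps kept, and RPL5 in the MS4A1 comparison at -0.14 on total UMIs. Of 107 alternatives for shares per gate 56 moved by less than 1 SD and 51 by more. The AHSP comparison could not be fitted without whole marrow 2, at 50 barcodes per sum or with only its gates. Small gates limit what was detectable: the MS4A1 gate held 41, 42 and 88 barcodes and the whole-marrow stem gate 20 in each of 2 marrows.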

Other observations

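CD79A, a subunit of the B-cell receptor, had counts in every gate, not in B-lineage gates alone. It averaged 10853 ± 275 CPM (SD, n = 3) in the CD3E gate, 5929 ± 330 in the ELANE gate, 1873 ± 201 in the CAMP gate and 1279 ± 372 in the CXCL8 gate. Over all sums it had 1.73 to 4.45 UMIs per 100 ribosomal protein UMIs. Its partner CD79B averaged at most 12.2 CPM in any gate. In the RefSeq annotation of the assembly UU_Cfam_GSD_1.0, which is not the build of these counts, the gene next to CD79A is RPS19, a ribosomal protein gene with no entry among the symbols here. Whether reads of RPS19 were counted under CD79A was not tested.

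Barcodes that passed no gate held 16.7% ± 0.627 ribosomal protein UMIs in whole marrow (n = 3) and 31.0% ± 1.50 in sorted libraries (n = 2). In the CXCL8 gate barcodes with 2 to 5 CXCL8 UMIs held 6.41% ± 1.68, those with 5 to 20 held 5.09% ± 1.04 (n = 3) and those with more held 3.97% ± 1.02 (n = 2). The last stratum lacks marrow 1, which had the highest values in the others (8.08% and 6.17%). Marrow 2 fell over the strata (6.41%, 5.02% and 3.25%), while marrow 3 did not fall steadily (4.73%, 4.09% and 4.70%).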
